A study of Mus musculus with 6 samples.

Results

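YAP (Yap1) and TAZ (Wwtr1), their DNA-binding partner TEAD1 (Tead1), the serum response factor SRF (Srf) and 6 genes that these factors are known to switch on (Ccn1, Ccn2, Ankrd1, Amotl2, Ajuba and Lats2) were read in MC38 tumors injected with Mn-N/C or with saline vehicle. They are 10 of the 21958 genes of the expression table, taken by name, and all 10 were among the 12800 genes with enough reads to be tested. They were chosen by the read levels of Ccn1, which was higher in Mn-N/C tumors, and of other early response genes, which were lower, so the difference between Mn-N/C and vehicle had a part in the choice. The differences of the 10 genes and of the early genes are therefore given as descriptions, with no p-value.

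The tumors were raised from MC38, a cell line of a mouse colon carcinoma, placed under the flank skin of male C57BL/6J mice labelled WT (wild type) and aged 6 to 8 weeks. Mn-N/C is a nanozyme in which single manganese atoms sit in nitrogen-doped carbon and catalyse Fenton-like reactions. In the Mn-N/C group (n = 3 libraries) it was injected into the tumor at 70 mg/kg in 50 µL every 3 days, and in the vehicle group (n = 3) 50 µL of saline was injected on the same schedule. The methods of the study give 800 to 1000 mm3 as the volume at collection for its tumor models in general. Neither the size nor the day of harvest is given for the tumors sequenced here, which were frozen. The labels do not say that the libraries of a group came from separate mice, so p-values measure only the spread between these samples.

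YAP and TAZ are co-activators that carry no DNA-binding domain of their own and act through TEAD factors. In the Hippo pathway the kinase MST acts through the kinase LATS, which phosphorylates YAP and TAZ and keeps them out of the nucleus. Stretch, a stiff matrix or a tense actin cytoskeleton lets them in. SRF binds the CArG box and works with either of 2 kinds of partner. MRTF co-activators, which monomeric actin holds back, take it to genes of the actin cytoskeleton, and the ternary complex factors of the ELK family take it to immediate early genes such as Egr1 and Fos. Ccn1 and Ccn2, which encode secreted matricellular proteins, are read in many solid tumors as reporters of YAP/TEAD activity, and Ccn1 is an SRF target as well.

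The promoters of the 5 genes whose Mn-N/C and vehicle libraries did not overlap, with Mn-N/C higher, are shown because these genes shared a direction and because the letters that TEAD and SRF recognise can be read in them. Each is the 250 bases before the RefSeq start site on build GRCm38.p6, written 5′ to 3′ on the strand of the gene: chr3:145649986-145650235 on the minus strand for Ccn1, chr19:36119845-36120094 on the minus strand for Ankrd1, chr9:102717554-102717803 on the plus strand for Amotl2, chr14:54577662-54577911 on the minus strand for Ajuba and chr17:46556163-46556412 on the minus strand for Srf. Capitals mark the TEAD motif (GGAATG, or CATTCC where it lies on the other strand) and, in Srf, the CArG box.
Ccn1: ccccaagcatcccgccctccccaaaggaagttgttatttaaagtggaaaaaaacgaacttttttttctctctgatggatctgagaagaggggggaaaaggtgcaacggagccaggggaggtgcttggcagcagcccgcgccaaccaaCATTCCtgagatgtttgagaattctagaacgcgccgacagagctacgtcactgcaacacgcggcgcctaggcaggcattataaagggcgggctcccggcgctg
Ankrd1: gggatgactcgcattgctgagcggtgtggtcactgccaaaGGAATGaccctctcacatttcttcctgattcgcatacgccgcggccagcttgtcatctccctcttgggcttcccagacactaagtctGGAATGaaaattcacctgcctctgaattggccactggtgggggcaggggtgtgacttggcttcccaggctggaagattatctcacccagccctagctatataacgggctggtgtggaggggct
Amotl2: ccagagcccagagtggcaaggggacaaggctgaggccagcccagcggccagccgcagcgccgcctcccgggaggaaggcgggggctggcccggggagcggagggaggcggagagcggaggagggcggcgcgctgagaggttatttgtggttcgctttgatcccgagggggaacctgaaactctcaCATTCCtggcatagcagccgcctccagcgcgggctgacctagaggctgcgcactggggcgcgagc
Ajuba: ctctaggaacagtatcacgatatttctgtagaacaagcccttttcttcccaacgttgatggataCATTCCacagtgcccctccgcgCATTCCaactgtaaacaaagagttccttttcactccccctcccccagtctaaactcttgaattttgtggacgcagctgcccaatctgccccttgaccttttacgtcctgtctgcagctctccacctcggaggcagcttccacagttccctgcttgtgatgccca
Srf: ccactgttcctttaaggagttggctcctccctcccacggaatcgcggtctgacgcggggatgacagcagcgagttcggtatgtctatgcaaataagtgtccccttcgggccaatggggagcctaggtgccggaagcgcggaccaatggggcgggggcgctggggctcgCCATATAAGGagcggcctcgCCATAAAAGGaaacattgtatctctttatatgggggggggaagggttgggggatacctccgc

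The TEAD motif stood once before Ccn1, 103 bases upstream of the start, and once before Amotl2, 65 bases upstream. Ankrd1 held it at 210 and 123 bases and Ajuba at 186 and 164 bases upstream. Srf had no TEAD motif, but had 2 CArG boxes, 82 and 62 bases upstream, which did not overlap each other. A RefSeq promoter window of 300 bases (250 before to 50 after a start) was at hand for 8 of the 10 genes, in 10 windows. The TEAD motif was in 8 of these 10 windows, from 7 genes, against 14.7% of all 32851 windows, and the CArG box was in 1 of 10, against 1.63% of all windows. The 2 windows of Wwtr1 overlap and hold the same TEAD site. The genes were chosen as known targets and regulators in these pathways, so these shares are not independent of the choice. The AP-1 motif TGANTCA, which reads the same on both strands, was in 0 of 10, against 7.81% of all windows. With the 50 bases after the start left out, the TEAD motif was in 7 of 10 windows, from 6 genes, against 12.6% of windows, since the one in Lats2 lies just after the start. Yap1 and Wwtr1 carried it too, and so genes with the motif stood among those with higher values, lower values and overlapping values in Mn-N/C tumors. A match of letters is a description of the window and not evidence of binding.

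The libraries held 14988588 to 18961134 counted reads, and edgeR's quasi-likelihood test called 0 of 12800 genes (0.0%) at a Benjamini-Hochberg adjusted p under 0.05. An unadjusted p under 0.05 was reached by 1257 genes with Mn-N/C higher and 1425 with Mn-N/C lower, and DESeq2 called 274 higher and 412 lower of the 10048 genes to which it gave an adjusted p. The libraries were not alike in their cell type markers. The summed level of 10 fibroblast markers was 3831, 8567 and 3622 CPM (read counts divided by the scaled library size in units of 1000000 reads) in the Mn-N/C tumors. It was 6310, 3953 and 4568 CPM in the vehicle tumors, with no marker at 0. By this sum Mn-N/C replicate 2 and vehicle replicate 1 stood above the rest. Taken singly, 5 of the 10 markers were highest in Mn-N/C replicate 2 and 3 in vehicle replicate 1. The sum of 14 skeletal muscle markers was 41.7, 819 and 16.2 CPM in Mn-N/C tumors and 22.1, 144 and 263 CPM in vehicle tumors, with Tnnc2 and Pvalb at 0 in some library. Of 9 epithelial markers that a colon carcinoma could carry, 8 were under 1 CPM in every library and 6 were at 0 in at least 1 library (Krt8, Krt18, Krt19, Krt20, Cldn7 and Cldn4). The sum of the 9 was 32.6, 41.4 and 30.0 CPM in Mn-N/C tumors and 35.0, 30.7 and 19.3 CPM in vehicle tumors. Most of it came from the 1 marker with enough reads to be tested. The labelled cell type was thus not borne out by most of these markers. In a bulk tumor, fewer cells of a type and less RNA per cell cannot be told apart.

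Per base of transcript, TAZ was the most abundant of the 10 messages. Wwtr1 averaged 62.3 ± 8.19 FPKM (reads scaled to transcript length and library total, mean ± SD over the 6 libraries), and Ccn1 followed at 27.7 ± 4.77 FPKM, clear of its neighbours on either side by more than 1 SD. Then came Srf (19.0 ± 2.28 FPKM), Ajuba (17.2 ± 2.78), Tead1 (17.1 ± 1.26), Yap1 (16.7 ± 0.997), Amotl2 (14.6 ± 1.77) and Ankrd1 (13.7 ± 2.37), a run in which the library ranges of each gene and the next overlapped. Ccn2 averaged 9.86 ± 4.98 FPKM and its spread reached the level of Ankrd1. Lats2 was lowest at 3.21 ± 0.44 FPKM. Wwtr1 exceeded Yap1 3.41 ± 0.161 times in FPKM in Mn-N/C tumors and 4.07 ± 0.674 times in vehicle tumors (SD, n = 3 each), and the ranges of the groups overlapped, at 3.25 to 3.57 and 3.44 to 4.79.

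Of the targets, Ccn1, Ankrd1, Amotl2 and Ajuba had all 3 Mn-N/C libraries above all 3 vehicle libraries, by 1.21- to 1.32-fold, and Ccn2 and Lats2 had overlapping groups. Of the factors, Srf was 1.19-fold higher in Mn-N/C tumors and Wwtr1 stood at 0.825-fold, both without overlap, while Yap1 and Tead1 overlapped. The groups of 5 of the 10 genes thus did not overlap with Mn-N/C higher, beside 14.2% of all tested genes, and those of 1 did not overlap with Mn-N/C lower, beside 12.1%. As the choice of genes used this comparison, nothing is read from these shares.

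**Figure D1:**
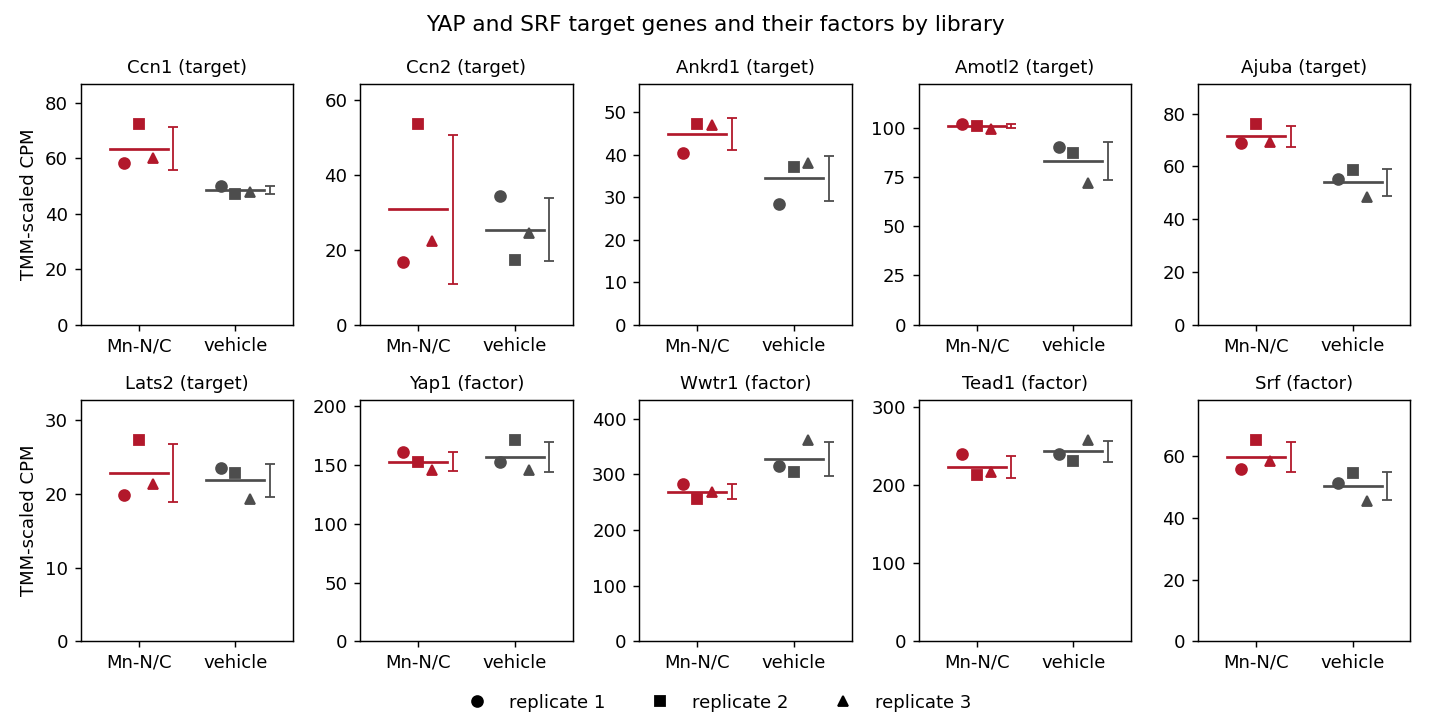
CPM scaled by TMM (y axis, from 0) of the 10 genes in the 3 Mn-N/C libraries (red) and the 3 vehicle libraries (grey), with the replicate number as the symbol, the group mean as a line and ± 1 SD as a bar. Ccn1, Ankrd1, Amotl2, Ajuba and Srf have every Mn-N/C point above every vehicle point, Wwtr1 has every Mn-N/C point below, and in Ccn2 the point of Mn-N/C replicate 2 (53.7 CPM) stands far above the other 5.

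Ccn1 (ENSMUSG00000028195, chromosome 3, 145352731 to 145355736, minus strand, 2019 bases of transcript), whose secreted protein binds integrins and heparan sulfate, had 58.1, 72.4 and 60.0 CPM in Mn-N/C replicates 1, 2 and 3, against 50.0, 47.2 and 47.9 CPM in vehicle replicates 1, 2 and 3. The groups did not overlap, the vehicle libraries lay close together and Mn-N/C replicate 2 was the highest of all. The log2 fold change of Mn-N/C over vehicle was 0.39 with a standard error (SE) of 0.0986, and it ranged from 0.29 to 0.45 when each library was left out in turn. Its coordinates, like those of the other genes below, are printed as the table gives them. The table names no build, and its coordinates are not those of GRCm38, from which the promoters above were read.

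Ccn2 (ENSMUSG00000019997, chromosome 10, 24471340 to 24474581, plus strand), the close relative of Ccn1 known as connective tissue growth factor, had 16.8, 53.7 and 22.3 CPM in Mn-N/C tumors, against 34.3, 17.4 and 24.4 CPM in vehicle tumors. The vehicle values all lay within the range of the Mn-N/C values, and the highest library of each group, Mn-N/C replicate 2 and vehicle replicate 1, was the one with the most fibroblast marker RNA. The log2 fold change was 0.29 (SE 0.42). It was -0.37 without Mn-N/C replicate 2, 0.58 without vehicle replicate 1 and -0.09 without both, so its sign rested on Mn-N/C replicate 2. The spread of Ccn2 within the groups was wider than that of 95.0% of the tested genes.

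Among the other CCN genes, Ccn3 and Ccn5 had the same libraries on top as Ccn2. Ccn3, a further secreted member of the family, had 7.48, 33.5 and 8.83 CPM in Mn-N/C tumors, against 23.9, 5.63 and 13.5 CPM in vehicle tumors. Ccn5, the member that lacks the C-terminal domain, had 2.45, 16.9 and 2.08 CPM in Mn-N/C tumors, against 7.38, 2.63 and 6.79 CPM in vehicle tumors. In both genes Mn-N/C replicate 2 and vehicle replicate 1 were the 2 highest libraries. Ccn4 had 15.3, 34.9 and 14.6 CPM in Mn-N/C tumors, against 21.9, 20.9 and 23.6 CPM in vehicle tumors, with Mn-N/C replicate 2 alone standing out. Ccn6, the least abundant, had 1.59, 0.998 and 1.29 CPM in Mn-N/C tumors, against 1.33, 1.04 and 1.27 CPM in vehicle tumors, with Mn-N/C replicate 2 lowest. Ccn1 made up 59.1 ± 13.4% of the family's summed FPKM in Mn-N/C tumors and 53.6 ± 8.45% in vehicle tumors (SD, n = 3 each). Of the family, Ccn1 alone had groups that did not overlap. The part of fibroblast content in the values of this family was not tested beyond leaving out those libraries, after which the log2 fold change of Ccn1 was 0.31 (SE 0.12).

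**Figure D2:**
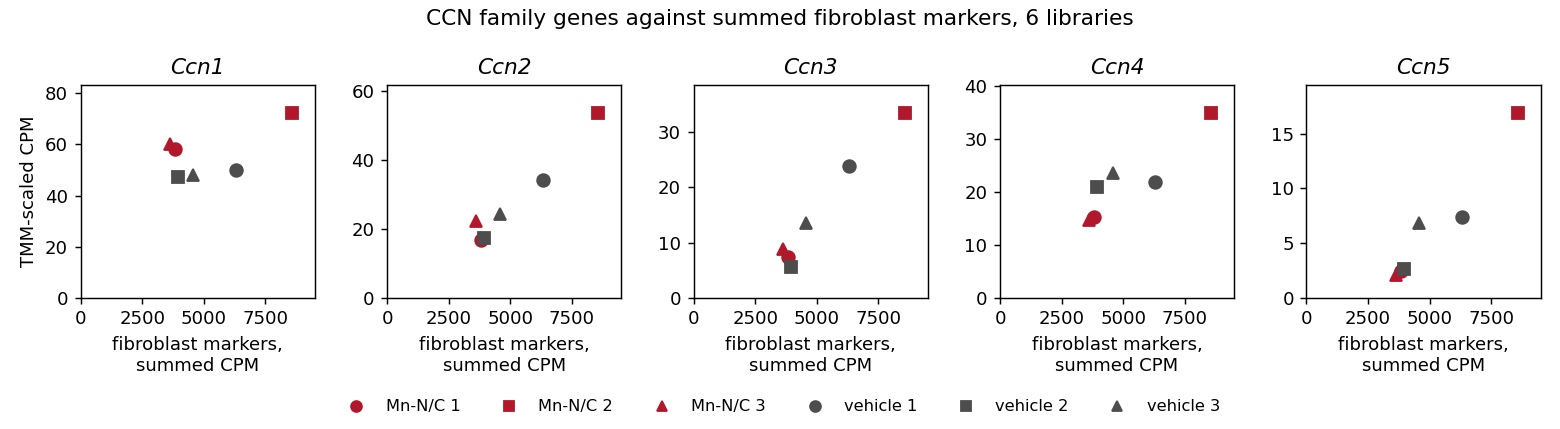
CPM of Ccn1 to Ccn5 (y axes, from 0) against the summed CPM of 10 fibroblast markers (x axis) in the 3 Mn-N/C (red) and 3 vehicle libraries (grey), with the replicate number as the symbol. Mn-N/C replicate 2 (8567 CPM of markers) is at the upper right for each gene, whereas for Ccn1 the other Mn-N/C libraries (58.1 and 60.0 CPM) lie above vehicle replicate 1 (50.0 CPM) at lower marker sums.

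Ankrd1 (ENSMUSG00000024803, chromosome 19, 36089361 to 36097499, minus strand), a muscle ankyrin repeat protein that is also a YAP target outside muscle, had 40.5, 47.3 and 47.0 CPM in Mn-N/C tumors, against 28.4, 37.1 and 38.0 CPM in vehicle tumors. The groups did not overlap, though Mn-N/C replicate 1 and vehicle replicate 3 were only a few CPM apart. Its log2 fold change was 0.38 (SE 0.129), and 0.22 (SE 0.138) without the 2 libraries highest in fibroblast markers. Skeletal muscle RNA, which was most abundant in Mn-N/C replicate 2 and vehicle replicate 3, moved with its relative Ankrd2, at 0.245, 4.88 and 0.0562 CPM in Mn-N/C tumors and 0.106, 0.245 and 1.67 CPM in vehicle tumors. The part of muscle RNA in the values of Ankrd1 was not tested.

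Amotl2 and Ajuba encode junctional and adhesion proteins that bind YAP and LATS. Amotl2 (ENSMUSG00000032531, chromosome 9, 102593871 to 102610617, plus strand), an angiomotin that holds YAP at junctions, had 102, 101 and 99.4 CPM in Mn-N/C tumors, against 90.3, 87.1 and 71.8 CPM in vehicle tumors. The Mn-N/C libraries lay within a few CPM of each other and the vehicle group was spread by its low replicate 3. Mn-N/C over vehicle gave a log2 fold change of 0.28 (SE 0.0951). The groups of its paralogs overlapped, with log2 fold changes of -0.14 (SE 0.094) for Amot and -0.14 (SE 0.0801) for Amotl1, and Amotl2 made up 38.9 ± 1.18% of angiomotin FPKM in Mn-N/C tumors and 32.2 ± 3.7% in vehicle tumors.

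Ajuba (ENSMUSG00000022178, chromosome 14, 54804929 to 54815015, minus strand), a LIM protein that binds LATS kinases, had 69.0, 76.1 and 69.3 CPM in Mn-N/C tumors, against 55.1, 58.5 and 48.4 CPM in vehicle tumors. The gap between the groups was wider than either group's own SD, which was 4.02 CPM in Mn-N/C tumors and 5.15 CPM in vehicle tumors. The log2 fold change of 0.40 (SE 0.0925) was the largest of the 10. Its LIM relative Limd1 had overlapping groups (log2 fold change 0.04, SE 0.0761), and Ajuba made up 57.7 ± 0.955% of the summed FPKM of Ajuba, Limd1 and Wtip in Mn-N/C tumors and 51.2 ± 2.53% in vehicle tumors.

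Lats2 (ENSMUSG00000021959, chromosome 14, 57927119 to 57995845, minus strand), the kinase that YAP induces and that phosphorylates YAP in turn, had 19.9, 27.3 and 21.4 CPM in Mn-N/C tumors, against 23.5, 22.9 and 19.3 CPM in vehicle tumors. The groups overlapped, and as in Ccn1, Ccn2, Ankrd1, Ajuba and Srf the highest library was Mn-N/C replicate 2. Its log2 fold change of 0.06 (SE 0.149) changed sign when single libraries were left out (-0.08 to 0.15). Lats2 was the minor LATS message, at 16.1 ± 2.15% of LATS FPKM in Mn-N/C tumors and 13.7 ± 1.83% in vehicle tumors.

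Among the factors, Srf (ENSMUSG00000015605, chromosome 17, 46859255 to 46867101, minus strand) had 55.9, 65.2 and 58.4 CPM in Mn-N/C tumors, against 51.4, 54.6 and 45.4 CPM in vehicle tumors. The groups did not overlap, but Mn-N/C replicate 1 and vehicle replicate 2 nearly met. Fitted, the difference was a log2 fold change of 0.25 (SE 0.0978). Srf is itself an SRF target, and its promoter is the one above with CArG boxes.

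Wwtr1 (ENSMUSG00000027803, chromosome 3, 57363070 to 57483331, minus strand), the gene of TAZ, went the other way, with 283, 256 and 269 CPM in Mn-N/C tumors, against 315, 304 and 361 CPM in vehicle tumors. All 3 Mn-N/C libraries lay below the vehicle libraries, among which replicate 3 was highest. The log2 fold change was -0.28 (SE 0.0843), and -0.09 (SE 0.0822) once the trend with GC content, described below, was removed.

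Yap1 (ENSMUSG00000053110, chromosome 9, 7932000 to 8004597, minus strand) had 161, 153 and 146 CPM in Mn-N/C tumors, against 153, 171 and 146 CPM in vehicle tumors. The groups overlapped over most of their range, and the log2 fold change was -0.03 (SE 0.0823). Tead1 (ENSMUSG00000055320, chromosome 7, 112278525 to 112506014, plus strand) had 239, 213 and 216 CPM in Mn-N/C tumors, against 240, 231 and 257 CPM in vehicle tumors. Its groups overlapped through Mn-N/C replicate 1, and the log2 fold change was -0.12 (SE 0.0762). By FPKM, Tead1 was 26.9 ± 1.53% of the TEAD messages in Mn-N/C tumors and 29.4 ± 1.48% in vehicle tumors, behind Tead2, at 38.9 ± 0.893% in Mn-N/C tumors and 39.8 ± 1.48% in vehicle tumors. Tead4 made up 30.9 ± 2.22% in Mn-N/C tumors and 27.3 ± 1.5% in vehicle tumors, and Tead3 under 4% in every library.

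The fold changes followed base composition and gene length across the genome, and the 10 genes differ in both. Over 12783 tested genes the log2 fold change had a Spearman rho of 0.49 with GC content, and over 12800 genes -0.26 with length, as a description across genes, which are not independent. Wwtr1 (43.9% GC), Yap1 (45.2%) and Tead1 (46.5%) were the most AT-rich of the 10, and Srf (64.4%), Ajuba (58.3%) and Amotl2 (56.7%) the most GC-rich. With each library's trend on GC removed, the log2 fold change was 0.33 for Ccn1, 0.28 for Ccn2, 0.43 for Ankrd1, 0.19 for Amotl2, 0.30 for Ajuba and 0.01 for Lats2. It was 0.12 for Srf, -0.09 for Wwtr1, 0.09 for Yap1 and -0.03 for Tead1 in the same fit. With the trend on length removed, Ccn1 was at 0.35, Ajuba at 0.42 and Wwtr1 at -0.23, while Yap1 and Tead1 changed sign, to 0.09 and 0.06. Ccn1, Ankrd1, Amotl2, Ajuba and Srf kept a positive and Wwtr1 a negative log2 fold change under all 17 alternatives tried. The groups of these genes did not overlap, so leaving out libraries could hardly change their signs. The other alternatives reused the same counts, and nothing is read from the kept signs.

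**Figure D3:**
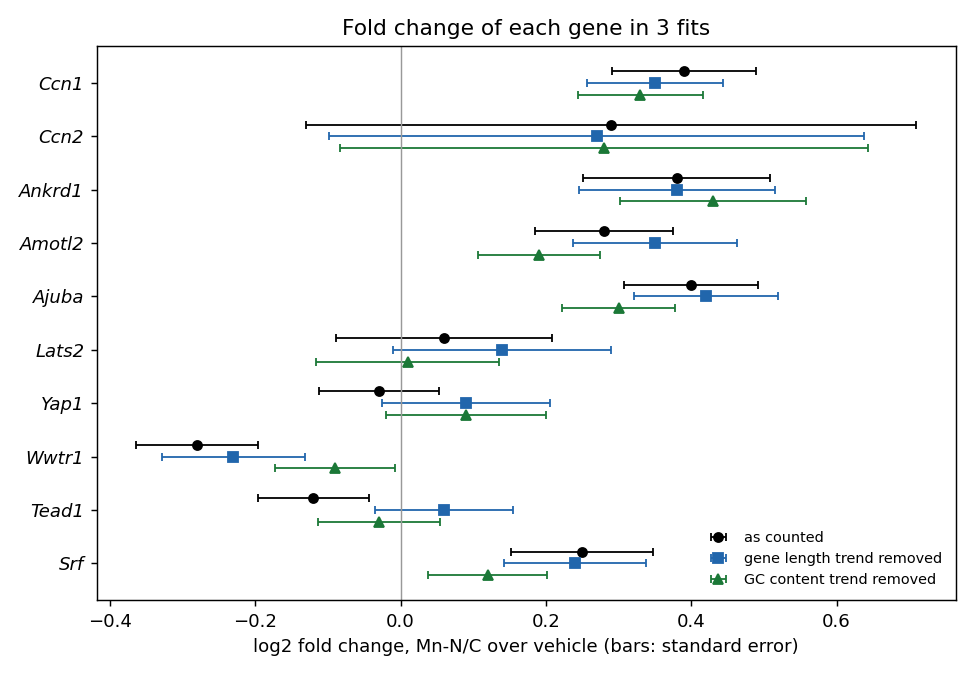
Log2 fold change of Mn-N/C over vehicle (x axis) of the 10 genes in the fit to the counts (black), with each library's gene length trend removed (blue) and with its GC content trend removed (green), with bars of 1 SE. The values of Ccn1 (0.39, 0.35 and 0.33) lie close together, Wwtr1 runs from -0.28 to -0.09, and Yap1 and Tead1 cross 0.

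Over the 6 libraries the genes varied together in part. Ajuba and Srf had the same order of libraries (Pearson r = 0.96, Spearman rho = 1.0), and Wwtr1 had the reverse order of both (r = -0.98 and rho = -1.0 with each). The r with the group means removed was 0.97 for Ajuba with Srf and -0.96 for Wwtr1 with Srf, so the pattern also ran within the groups, where vehicle replicate 3 was lowest in Ajuba, Srf and Amotl2 and highest in Wwtr1 and Tead1. Ccn1 and Ccn2 had r = 0.56, and 0.96 with the group means removed. Each r is over 6 points that share library and depth, and is a description. No GC trend was removed from these values. Srf (64.4% GC) and Ajuba (58.3%) differ in base composition from Wwtr1 (43.9%) and Tead1 (46.5%). The part of base composition in each r was not tested. The genes of the whole table closest to Ccn1 across the 6 libraries were Sorcs2 (r = 0.980), Gnb4 (0.979), Pcbd2 (0.979), Plekhb1 (0.975) and Acy1 (0.971), among 10552 genes compared, of which 123 had r over 0.9. Sorcs2, a sorting receptor of neurons, had 135, 149 and 139 CPM in Mn-N/C tumors, against 124, 121 and 117 CPM in vehicle tumors, so it shares with Ccn1 a tight vehicle group and a high Mn-N/C replicate 2.

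The question of whether other genes of these pathways moved with the 10 was put to lists written from general knowledge. Earlier results of these data were known when the lists were written, so their counts are not independent of this comparison. Of 17 further YAP/TEAD targets, all tested, 9 averaged above and 8 below vehicle tumors in Mn-N/C tumors, and the median of their log2 fold changes was 0.01, beside 0.00 over all tested genes. By edgeR 0 were called at an adjusted p under 0.05. An unadjusted p under 0.05 was reached by 2 with Mn-N/C higher, beside 9.82% of all genes, and by 1 with Mn-N/C lower, beside 11.1%. Of the 13 targets to which it gave an adjusted p, DESeq2 called 0 as higher, beside 2.73% of all genes, and 1 as lower, beside 4.1%. Axl, the most abundant of them, a receptor tyrosine kinase, had 1657, 1530 and 1600 CPM in Mn-N/C tumors, against 1422, 1548 and 1285 CPM in vehicle tumors, with overlapping groups. Dock5, an activator of the GTPase RAC, had 91.8, 91.1 and 87.4 CPM in Mn-N/C tumors, against 79.6, 75.5 and 73.5 CPM in vehicle tumors (log2 fold change 0.24, SE 0.0704, edgeR adjusted p = 0.182). Its groups did not overlap, and Arhgef17 likewise had a log2 fold change of 0.25 (SE 0.0889, edgeR adjusted p = 0.196).

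The YAP/TEAD target with the smallest p lay on the other side. Rbms3, an RNA-binding protein, had 11.3, 11.8 and 9.95 CPM in Mn-N/C tumors, against 16.6, 13.4 and 20.2 CPM in vehicle tumors (log2 fold change -0.60, SE 0.172, edgeR adjusted p = 0.182). It was the 1 target called by DESeq2, and the 1 called by edgeR when vehicle replicate 2 was left out, beside 1.97% of all genes. With the GC trend removed its log2 fold change was -0.29 and that of Arhgef17 was 0.15. In that fit 1 of the 17 targets was higher and 0 were lower at an unadjusted p under 0.05, beside 1326 and 692 of 12783 genes. With the length trend removed 3 were higher and 2 lower, beside 1371 and 850 of 12800 genes. Gadd45a, a stress-induced growth arrest gene, overlapped, at 36.4, 27.8 and 45.3 CPM in Mn-N/C tumors and 37.9, 54.5 and 57.8 CPM in vehicle tumors. The 17 targets thus had no common direction, and how they differ from the 4 targets without overlap was not tested, since the choice of those used this comparison.

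The Hippo kinases, their adaptors and the partners of YAP showed no common direction either. Of 26 such genes, 14 averaged above and 12 below vehicle tumors in Mn-N/C tumors, and the median of their log2 fold changes was 0.01. By edgeR 0 were called at an adjusted p. An unadjusted p under 0.05 was reached by 1 with Mn-N/C higher, beside 9.82% of all genes, and 3 with Mn-N/C lower, beside 11.1%. Of the 23 genes to which it gave an adjusted p, DESeq2 called 1, Mob1b, as lower, beside 4.1% of all genes. Mob1b, which activates the LATS kinases, had 56.4, 59.5 and 68.2 CPM in Mn-N/C tumors, against 86.0, 74.6 and 115 CPM in vehicle tumors (log2 fold change -0.58, SE 0.157, edgeR adjusted p = 0.182). Its more abundant paralog Mob1a had 329, 331 and 314 CPM in Mn-N/C tumors and 326, 335 and 380 CPM in vehicle tumors, which overlapped.

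Lats1, which supplied most of the LATS message, had 122, 126 and 126 CPM in Mn-N/C tumors, against 140, 140 and 153 CPM in vehicle tumors, without overlap (log2 fold change -0.21, SE 0.0702, edgeR adjusted p = 0.184). Taok1, a kinase upstream of MST, had 105, 99.3 and 125 CPM in Mn-N/C tumors and 146, 119 and 203 CPM in vehicle tumors. Once the trend across genes with GC content was removed, the log2 fold change was -0.15 for Mob1b, -0.17 for Taok1 and 0.00277 for Lats1. Wwc1, the scaffold KIBRA, had 79.8, 73.4 and 80.1 CPM in Mn-N/C tumors, against 62.1, 72.0 and 61.1 CPM in vehicle tumors (log2 fold change 0.26, SE 0.0888, edgeR adjusted p = 0.189). Its log2 fold change was 0.16 with the GC trend removed. Without vehicle replicate 2, edgeR called 1 of the 26, Mob1b, as lower, beside 1.97% of all genes.

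The actin and actin-binding genes that SRF drives with MRTF were the list that lay furthest to one side. Of 22 such genes 21 were tested, and 19 averaged above and 2 below vehicle tumors in Mn-N/C tumors. The median of their log2 fold changes was 0.35, beside 0.00 over all tested genes. By edgeR 0 were called at an adjusted p under 0.05. An unadjusted p under 0.05 was reached by 11 with Mn-N/C higher, beside 9.82% of all genes, and by 1 with Mn-N/C lower, beside 11.1%, and the groups of 10 did not overlap with Mn-N/C higher, beside 14.2%. DESeq2 called 5 as higher (Actb, Actg1, Tagln2, Cnn2 and Tpm1) and 0 as lower, of the 18 genes to which it gave an adjusted p, beside 2.73% and 4.1% of all genes. With vehicle replicate 2 left out, edgeR called 5 of 21 as higher (Actb, Actg1, Cnn1, Cnn2 and Tpm1), beside 2.5% of all genes, and 0 as lower, beside 1.97%. The median was 0.27 with the GC trend removed, beside 0.03 over all genes in that fit. It was 0.26 without the 2 libraries highest in fibroblast markers, beside -0.01 over all genes. This list too was written with earlier results of these data known, so its counts are not an independent check.

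Actb, the cytoplasmic beta-actin and the most abundant gene of the list, had 4125, 4085 and 3573 CPM in Mn-N/C tumors, against 2961, 3171 and 2382 CPM in vehicle tumors (log2 fold change 0.47, SE 0.117, edgeR adjusted p = 0.182). Actg1, the gamma-actin of the same filaments, had 2254, 2155 and 1949 CPM in Mn-N/C tumors, against 1593, 1688 and 1291 CPM in vehicle tumors (log2 fold change 0.48, SE 0.111, edgeR adjusted p = 0.182). The groups of both actins stood apart, with vehicle replicate 3 lowest. Tpm1, a tropomyosin that lies along actin filaments, had 691, 782 and 688 CPM in Mn-N/C tumors, against 533, 566 and 527 CPM in vehicle tumors (log2 fold change 0.41, SE 0.0767, edgeR adjusted p = 0.182). Cnn2, a calponin, had 131, 128 and 108 CPM in Mn-N/C tumors, against 88.1, 95.6 and 77.8 CPM in vehicle tumors (log2 fold change 0.49, SE 0.107, edgeR adjusted p = 0.182). Neither gene's groups overlapped.

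Cnn1 and Acta2, which smooth muscle cells use, were highest in Mn-N/C replicate 2. Cnn1, the smooth muscle calponin, had 22, 49 and 28 reads in Mn-N/C tumors, against 2, 6 and 4 reads in vehicle tumors (log2 fold change 2.89, SE 0.532, edgeR adjusted p = 0.182), and its groups did not overlap. Acta2, the smooth muscle actin, was outside the rule for named genes and was added after its values were seen, with 50.8, 124 and 51.3 CPM in Mn-N/C tumors and 39.4, 40.8 and 28.0 CPM in vehicle tumors. Leaving out Mn-N/C replicate 2 gave a log2 fold change of 0.51 for Acta2, against 1.07 with all libraries. The summed level of 8 pericyte and smooth muscle markers not in the list was 381, 464 and 436 CPM in Mn-N/C tumors and 442, 456 and 408 CPM in vehicle tumors, none at 0, with the groups overlapping. Tagln, whose SM22 protein is a hallmark of smooth muscle, had too few reads to be tested. Cald1, the actin-binding caldesmon, also added after its values were seen, was the 1 gene lower at an unadjusted p, with 812, 778 and 873 CPM in Mn-N/C tumors, against 934, 918 and 1150 CPM in vehicle tumors. Its log2 fold change was -0.29, and -0.14 with the GC trend removed. In that fit 11 genes of the list were higher and 0 were lower at an unadjusted p under 0.05, beside 1326 and 692 of 12783 genes.

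**Figure D4:**
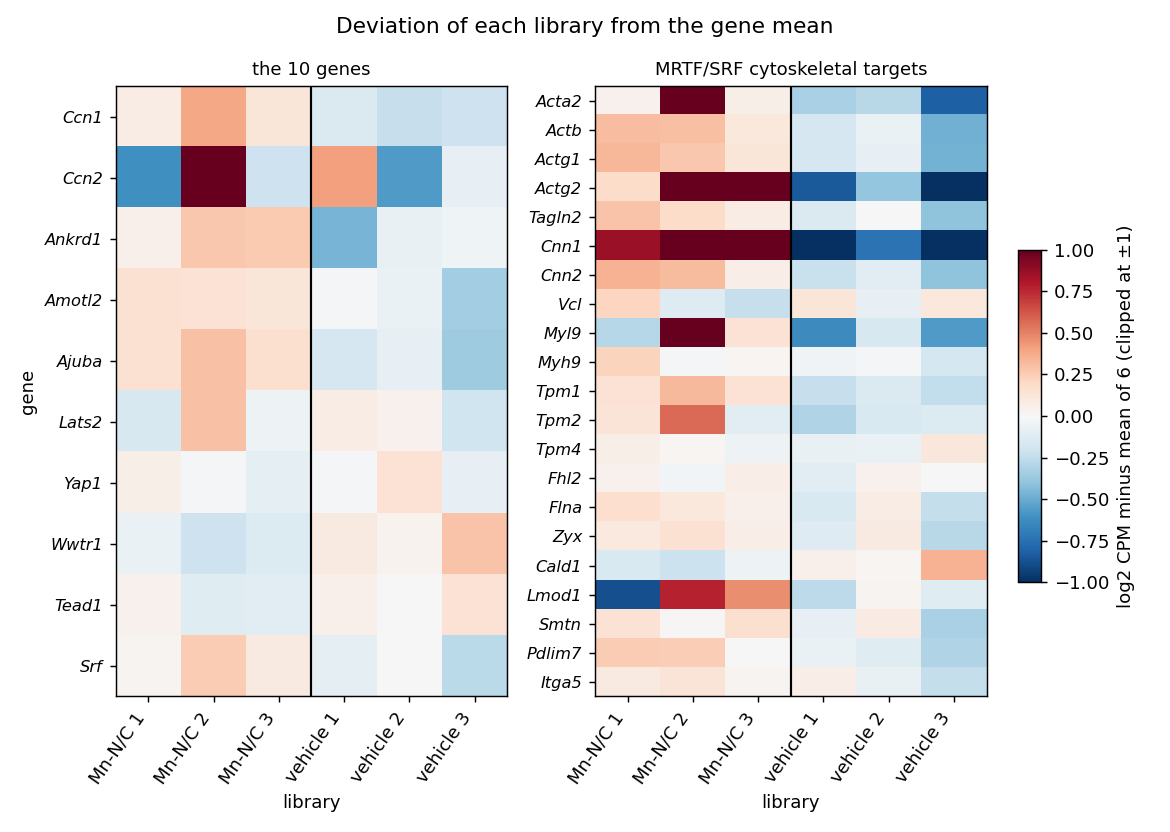
Color gives log2 CPM minus the gene's mean over the 6 libraries (red above, blue below, clipped at ± 1) for the 10 genes (left) and the 21 tested MRTF/SRF cytoskeletal genes (right), with 3 Mn-N/C libraries left of the black line and 3 vehicle libraries right of it. Ccn2 is darkest red in Mn-N/C replicate 2 and red in vehicle replicate 1, and in Actb, Actg1, Cnn2, Ajuba and Srf vehicle replicate 3 is the bluest column.

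The partners of SRF had nearly level values. Mrtfa had 50.8, 45.6 and 46.3 CPM in Mn-N/C tumors, against 46.4, 48.3 and 36.2 CPM in vehicle tumors, and Mrtfb had log2 fold change -0.07 (SE 0.0835). Elk4, a ternary complex factor, had 65.3, 65.4 and 72.1 CPM in Mn-N/C tumors, against 79.3, 74.5 and 78.7 CPM in vehicle tumors (log2 fold change -0.20, SE 0.076, edgeR adjusted p = 0.207). Its groups did not overlap, and it was the 1 of 5 tested partners past an unadjusted p of 0.05, beside 11.1% of all genes with Mn-N/C lower. Elk1 and Elk3 had log2 fold changes of 0.05 (SE 0.104) and 0.00 (SE 0.0718), and by edgeR and by DESeq2 0 of the 5 were called.

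The early response genes that SRF shares with the ternary complex factors lay mostly lower, which was part of the reason for choosing the 10 genes and is given as a description only. Of 17 such genes, 4 averaged above and 13 below vehicle tumors in Mn-N/C tumors, the median of their log2 fold changes was -0.13, and the groups of 5 did not overlap with Mn-N/C lower, beside 12.1% of all genes. Egr1, a zinc finger factor, had 64.1, 51.5 and 48.0 CPM in Mn-N/C tumors, against 88.3, 73.3 and 98.9 CPM in vehicle tumors (log2 fold change -0.67, SE 0.141). Atf3, a stress-induced bZIP factor, had 18.3, 12.5 and 21.7 CPM in Mn-N/C tumors, against 25.8, 26.1 and 38.3 CPM in vehicle tumors (-0.78, SE 0.229). Klf6 had 239, 229 and 253 CPM in Mn-N/C tumors, against 338, 271 and 416 CPM in vehicle tumors (-0.51, SE 0.14, and -0.25 with the GC trend removed). In Egr1, Atf3 and Klf6 the groups stood apart and vehicle replicate 3 was highest. These genes and Ier2 are named because they had the smallest p of the 17 in this comparison, so nothing is read from the gaps between their groups. Ier2, an early gene induced by growth factors, had 60.9, 55.1 and 61.1 CPM in Mn-N/C tumors, against 75.3, 61.4 and 81.3 CPM in vehicle tumors, with groups that almost met. Jun, the most abundant, had 354, 324 and 340 CPM in Mn-N/C tumors, against 404, 319 and 394 CPM in vehicle tumors, with overlap. Nr4a1, an orphan nuclear receptor named here after its values were seen, was the 1 early gene of the 17 without overlap in the direction of Ccn1, beside 14.2% of all tested genes. It had 26.4, 25.7 and 26.7 CPM in Mn-N/C tumors, against 20.8, 22.8 and 22.3 CPM in vehicle tumors.

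**Figure D5:**
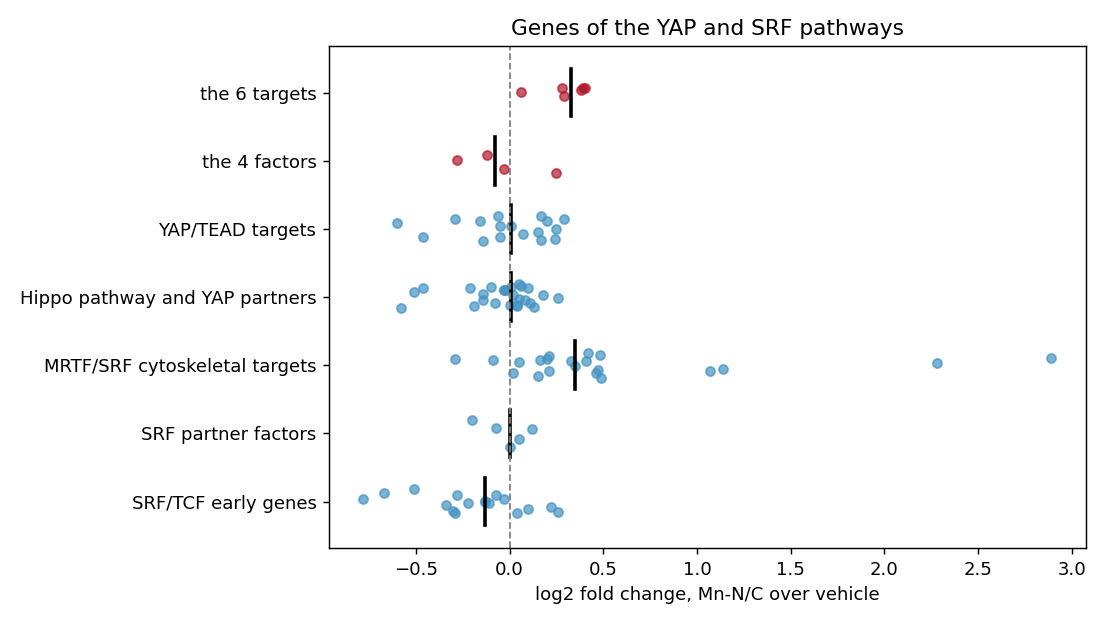
Log2 fold change of Mn-N/C over vehicle (x axis) of each tested gene in 7 groups of genes (rows), with the 10 chosen genes in red, the other genes in blue, and a black bar at each median. The cytoskeletal SRF targets have a median of 0.35, the further YAP/TEAD targets and the Hippo genes 0.01 each, and the early genes -0.13.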

How the data were processed

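Whole tumor pieces were read by bulk RNA-seq in 6 libraries. The authors deposited read counts per protein-coding gene, not normalized and not pooled, and FPKM values that the authors made from those counts, the deposited gene length and the library total. The length column was deposited in bases. HISAT2 2.0 and mm10 stand in the submitters' processing notes without a role. How reads were counted, with which annotation and strand setting, is not given in the sources used here, so genes that overlap on opposite strands could share reads. No symbol was given in 51 rows of the table.

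The main test on the counts was the quasi-likelihood test of edgeR 4.0.16, run in R 4.3.3 (scaling by TMM, filterByExpr, glmQLFit, glmQLFTest, group as the only term; common biological coefficient of variation 0.165), with Benjamini-Hochberg adjustment over 12800 genes and calls at an adjusted p under 0.05. CPM are counts divided by the TMM-scaled library size in units of 1000000 reads. The script was tested on simulated data. Alternatives were DESeq2 1.42.0, RLE and upper-quartile scaling, no filter, limma 3.58.1 on log2(FPKM + 1) and log2(FPKM + 0.1) where at least 3 libraries had an FPKM of 1 or more, the replicate number as a block, loess trends (span 0.5) on length or GC content removed, and each library left out. Leaving out Mn-N/C replicate 2 and vehicle replicate 1 together was added after the data were seen. A count of 0 allows up to 3 counts, or 0.158 to 0.200 CPM by library, as counting error only.

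The genes and lists were chosen with earlier results of these data known. Named were the 10 genes, of each list the 4 genes with the smallest p and the most abundant gene, the paralogs, and the 5 genes (FPKM of at least 1) closest to Ccn1 by Pearson r. Promoters come from RefSeq on GRCm38.p6. Protein sequences were not analysed here.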

Additional observations from a re-analysis of the deposited data

How the results depend on the processing

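Ccn1, Ankrd1, Amotl2, Ajuba, Srf and Wwtr1 kept their sign under all 17 alternatives. These are the genes whose groups did not overlap, so a kept sign was largely fixed in advance where libraries were left out. Ccn2 kept its sign in 15 of them, Lats2 in 14, Yap1 in 12 and Tead1 in 15. The median log2 fold change of the 10 genes (0.26) was 0.15 with the GC content trend removed and 0.08 with both libraries highest in fibroblast markers left out. It lay between 0.08 and 0.28 when each library was left out in turn, lowest without Mn-N/C replicate 2. The median of the early genes (-0.13) was -0.22 with the GC trend removed and -0.23 to -0.10 leaving out each library. Against 0 genes called by edgeR, DESeq2 called 686, the length correction with the replicate block called 69, and leaving out each library gave 0 to 583, highest without vehicle replicate 2. Likewise DESeq2 called 1 YAP/TEAD target, 1 Hippo gene and 5 cytoskeletal genes, the length correction with the replicate block 3 cytoskeletal genes, and leaving out each library 0 to 1 YAP/TEAD targets, 0 to 1 Hippo genes and 0 to 5 cytoskeletal genes. Signs reversed in Lats1 (0.00277) and Mob1a (0.10) with the GC trend removed, in Mrtfb with the length trend removed (0.06, and 0.05 with the replicate block), in Elk1 without vehicle replicate 1 (-0.00035; range -0.00035 to 0.16 leaving out each library), and in Elk3 under limma with either pseudocount (-0.02), without both libraries (-0.03), and without Mn-N/C replicate 1 (-0.03) or vehicle replicate 1 (-0.02), in a range of -0.03 to 0.04. The cause was not tested. Where a library was left out, its group kept 2 libraries.

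Samples with the same replicate number did not deviate together (r = -0.153, -0.011 and 0.124 for numbers 1, 2 and 3), so the numbers were not used as pairs. With the replicate block, edgeR called 0 genes and the median of the 10 genes was 0.20. Genes at a few reads, such as Cnn1, are limited by depth.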

Other observations

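Of the host cell markers beside fibroblasts and muscle, the sum of 10 endothelial markers was 152, 272 and 180 CPM in Mn-N/C tumors and 252, 168 and 204 CPM in vehicle tumors, so the 2 libraries rich in fibroblast RNA and in Ccn2 were also the highest here. The sum of 8 macrophage markers was 1114, 1329 and 1334 CPM in Mn-N/C tumors and 1240, 1173 and 962 CPM in vehicle tumors. The sum of 7 adipocyte markers was 17.2, 25.2 and 18.3 CPM in Mn-N/C tumors and 64.2, 17.9 and 37.5 CPM in vehicle tumors, highest in vehicle replicate 1, which had the lowest Ankrd1. The sum of 7 keratinocyte markers was 209, 192 and 203 CPM in Mn-N/C tumors and 178, 200 and 142 CPM in vehicle tumors, with Krt5, Krt1, Lor and Dsg1a at 0 in some library. The sum of 6 T cell markers was 2.94, 12.1 and 4.05 CPM in Mn-N/C tumors and 12.3, 6.31 and 1.73 CPM in vehicle tumors, and that of 5 neutrophil markers was 4.29, 13.7 and 6.07 CPM in Mn-N/C tumors and 8.18, 7.1 and 4.13 CPM in vehicle tumors.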
